A study of Mus musculus with 18 samples.

Results

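Atoh1, Spdef, Gfi1, Bhlha15, Neurog3, Neurod1, Sox4, Sox9, Pou2f3 and Rfx6 are transcription factors that specify, or are restricted to, secretory cells of the intestinal epithelium. They were named for that role, and all 10 were among the 32286 genes of the count matrices. Their mRNA was followed in 8 droplet single-cell RNA-seq libraries of GFP-sorted ileal crypt cells, with 2 libraries in each of 4 groups. The mice were C57Bl6 animals of 60 to 65 days that had received 70 mg/kg tamoxifen in a single intraperitoneal injection 5 days earlier. Each of the 8 libraries carried Lgr5-GFP-CreERT2, an allele in which the Lgr5 locus drives GFP and a tamoxifen-inducible Cre recombinase in intestinal stem cells, and which is known to be active in only a fraction of crypts.

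The Lgr5+WT group carried that allele alone, and the Lgr5+Setdb1KO group carried it with homozygous Setdb1lox/lox, in which exon 3 of Setdb1 is flanked by loxP sites. Setdb1 encodes a histone H3 lysine 9 methyltransferase. The lineage-traced groups carried in addition nTnG, a Cre-dependent reporter that marks nuclei of recombined cells and of their progeny with GFP, so those sorts hold descendants of stem cells as well as stem cells. Wild type (WT) thus means Cre and tamoxifen without floxed Setdb1. Libraries of a group are separate biological replicates. The 3′ counts do not measure loss of the floxed exon. The other samples of the series were not analysed here.

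The epithelium of the small intestine is renewed from Lgr5+ stem cells at the crypt base. In their progeny Notch signalling between neighbouring cells separates an absorptive fate, in which Notch is active and Atoh1 is repressed, from a secretory fate, in which Atoh1 is expressed together with the Notch ligands Dll1 and Dll4. Atoh1, a basic helix-loop-helix (bHLH) activator, is required for the secretory lineage. Below it, Spdef promotes goblet and Paneth cell maturation, Gfi1 represses the enteroendocrine programme in goblet and Paneth precursors, and Bhlha15 (Mist1), another bHLH protein, scales up the secretory machinery. Neurog3, also bHLH, is the transient switch to the enteroendocrine fate, and Neurod1 and Rfx6 act in the cells that have passed it. Pou2f3 is the master regulator of tuft cells. Sox9 is a factor of stem, Paneth and tuft cells, and Sox4 is expressed in stem cells and in early enteroendocrine and tuft precursors.

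Several of the 10 factors are bHLH proteins, which bind the E-box CANNTG (N, any base; the motif reads alike on both strands). The promoters of the 3 factors whose summed level was called different between genotypes in the lineage-traced cells are shown here as a description. No result below rests on them, and binding was not measured. Each is the RefSeq window from 250 bases before to 50 after the transcription start, on the gene's own strand, in build GRCm38.p6, with E-box letters in capitals. Bhlha15 lies at chr5:144190036-144190335 on the plus strand, Neurog3 at chr10:62132840-62133139 on the plus strand, and Neurod1 at chr2:79456587-79456886 on the minus strand.
Bhlha15: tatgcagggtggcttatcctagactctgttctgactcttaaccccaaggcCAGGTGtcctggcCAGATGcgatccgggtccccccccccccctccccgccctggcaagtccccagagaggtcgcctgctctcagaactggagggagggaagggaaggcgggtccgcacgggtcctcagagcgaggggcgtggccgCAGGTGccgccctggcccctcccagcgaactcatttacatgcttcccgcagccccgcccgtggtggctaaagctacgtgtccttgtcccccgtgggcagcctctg
Neurog3: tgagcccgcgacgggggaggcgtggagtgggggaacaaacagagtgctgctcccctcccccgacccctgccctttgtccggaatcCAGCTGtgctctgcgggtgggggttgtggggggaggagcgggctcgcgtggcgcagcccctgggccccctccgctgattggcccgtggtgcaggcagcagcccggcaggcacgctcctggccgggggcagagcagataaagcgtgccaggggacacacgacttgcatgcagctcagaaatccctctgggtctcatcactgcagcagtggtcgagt
Neurod1: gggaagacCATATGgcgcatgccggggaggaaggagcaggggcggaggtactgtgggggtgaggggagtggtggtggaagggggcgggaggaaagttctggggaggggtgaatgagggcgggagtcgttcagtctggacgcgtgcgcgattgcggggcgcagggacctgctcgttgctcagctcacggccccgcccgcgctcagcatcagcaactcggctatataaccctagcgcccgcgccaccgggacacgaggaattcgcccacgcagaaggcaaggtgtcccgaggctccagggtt

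The Bhlha15 window held 3 matches, CAGGTG starting 200 bases and again 55 bases before the start, and CAGATG 187 bases before it. The Neurog3 window held CAGCTG 165 bases before the start, and the Neurod1 window CATATG 242 bases before it. Of the 8 factors with a window in the table, 6 held at least 1 match, and the windows of Atoh1 and Spdef held none. The motif is common, since 72.3% of all 32851 promoter windows of this length held it, and a match is a string of letters and not evidence of binding. Sox9 and Pou2f3 were not matched in the table.

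The 10 genes were measured over 52015 barcodes, 25218 from the Lgr5+ sort and 26797 from the lineage-traced sort, which had 1000 (Lgr5+) or 500 (lineage-traced) to 18000 unique molecular identifiers (UMIs) and under 5% mitochondrial UMIs. The median depth of kept barcodes was 4686 to 9336 UMIs in the Lgr5+ libraries and 961 to 2085 in the lineage-traced libraries, so shares of cells with a UMI are not compared between the sorts. Setdb1 was at 11.4 and 9.93 counts per 1000000 UMIs (CPM) in Lgr5+WT and at 5.32 and 6.21 CPM in Lgr5+Setdb1KO (log2 fold change -0.85 ± 0.14 SE, edgeR adjusted p = 0.047). In the lineage-traced sort it was at 6.12 and 4.21 CPM in WT and at 10.5 and 7.85 CPM in Setdb1-KO (0.24 ± 0.23, adjusted p = 0.60), with higher levels in both Setdb1-KO libraries. Since the 3′ counts do not read the floxed exon, neither level checks the deletion, and Setdb1-KO below means the libraries labelled so. The Lgr5+ call was lost in 6 of 16 alternatives, which include leaving out Lgr5+WT replicate 1 (adjusted p = 0.14) or 2 (0.10) or Lgr5+Setdb1KO replicate 1 (0.10), no filter on low counts (0.12) and a UMI limit 2 times higher (0.062). Enterocyte markers summed to 5873 and 7161 CPM in lineage-traced WT and to 1754 and 2531 CPM in lineage-traced Setdb1-KO, and in the Lgr5+ sort, in the other direction, to 2281 and 3155 CPM in WT and 7135 and 3814 CPM in Setdb1-KO. Barcodes without cells carried Paneth cell mRNA: the Paneth markers made up 35.1% and 38.0% of UMIs in empty droplets of lineage-traced WT, 16.5% and 14.6% in lineage-traced Setdb1-KO, and 4.75% to 9.92% in the Lgr5+ libraries. Any library pair shared 3 to 34 kept barcodes, at most 0.449%. Markers of macrophages summed to at most 5.02 CPM, of stroma to at most 0.495 CPM and of erythrocytes to at most 0.424 CPM in any library. Markers of B and plasma cells summed to 110.0 CPM in Lgr5+WT replicate 2 and to at most 2.49 CPM elsewhere, and T cell markers summed to 126 and 75.7 CPM in Lgr5+WT against 19.5 and 14.7 CPM in Lgr5+Setdb1KO. None of the 10 genes is among those markers, and the part of such cells in the results was not tested.

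Each barcode was given a class from the share of its UMIs that fell on fixed marker genes, none of which is among the 10. A further class took barcodes with at least 2 UMIs of the Notch ligands Dll1 and Dll4 and the Notch-modifying enzyme Mfng. It took only barcodes that passed no goblet, Paneth, tuft, enteroendocrine, enterocyte or T cell limit, and it came before the stem and dividing classes. Goblet or enteroendocrine barcodes with such UMIs thus stayed in their own class. Barcodes of this class are called Dll1/Dll4/Mfng-positive here and not by a cell type, since only 3 markers define them. Barcodes that met no limit are called barcodes of no class, and made up 9.50% to 13.9% of the Lgr5+ libraries and 31.1% to 54.2% of the lineage-traced libraries. The shares of these markers are set by that rule and are given as a description. In the Lgr5+ sort, the median goblet barcode held 9.20% goblet-marker UMIs, the median Paneth barcode 50.05% Paneth-marker UMIs, the median enteroendocrine barcode 7.42% enteroendocrine-marker UMIs, and the median tuft barcode 0.939% tuft-marker UMIs. The same medians in the lineage-traced sort were 3.98%, 64.1%, 2.04% and 0.548%.

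Of the factors of the goblet and Paneth branch, Atoh1, Spdef and Gfi1 had their highest level in goblet cells and Bhlha15 in Paneth cells. Atoh1 was at 172 ± 18.5 CPM (SD over the 4 Lgr5+ libraries, here and for the levels that follow) in goblet cells, at 108 ± 13.7 CPM in Dll1/Dll4/Mfng-positive barcodes and at 31.5 ± 30.4 CPM in Paneth cells. The first 2 levels did not overlap in any library, and the Paneth level overlapped that of barcodes of no class, at 9.16 ± 2.94 CPM. Goblet cells held 70.2% to 85.2% of all Atoh1 UMIs of a library. An Atoh1 UMI was found in 47.7% to 70.8% of goblet barcodes and in 0% to 1.505% of enterocyte barcodes, which should lack it and whose median depth was higher (5176 to 11193 UMIs against 4248 to 8401). In stem and dividing barcodes the share was 0.594% to 4.97%, above that of the enterocytes of the same library in 4 of 4 libraries. In each library dividing barcodes were deeper than enterocytes (medians of 6072.5 to 12612 UMIs) and stem barcodes shallower (3680 to 7865 UMIs). After thinning to an equal depth, the share was 0.451% to 0.6655% in stem, 0.147% to 2.17% in dividing and 0% to 0.2755% in enterocyte barcodes. The stem range then still lay above that of enterocytes, while the dividing range overlapped it.

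Spdef had the same first places. It was at 160 ± 31.9 CPM in goblet cells, at 93.0 ± 15.4 CPM in Dll1/Dll4/Mfng-positive barcodes, at 36.9 ± 12.45 CPM in Paneth cells and at 14.9 ± 6.14 CPM in tuft cells, and the first 4 levels were separated in all 4 libraries without overlap of their ranges. Gfi1 was low, at 17.5 ± 4.58 CPM in goblet cells, 11.95 ± 5.36 CPM in Dll1/Dll4/Mfng-positive barcodes and 7.30 ± 7.27 CPM in Paneth cells, and the ranges of these neighbours overlapped. Bhlha15 was at 51.7 ± 32.4 CPM in Paneth cells and 14.4 ± 5.60 CPM in goblet cells, with Paneth above goblet in 4 of 4 libraries although the ranges touched (21.7 to 92.9 CPM against 11.1 to 22.7 CPM). Because there were many more goblet than Paneth cells, goblet cells still held 44.0% to 61.3% of its UMIs and Paneth cells 13.5% to 29.2%.

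**Figure D1:**
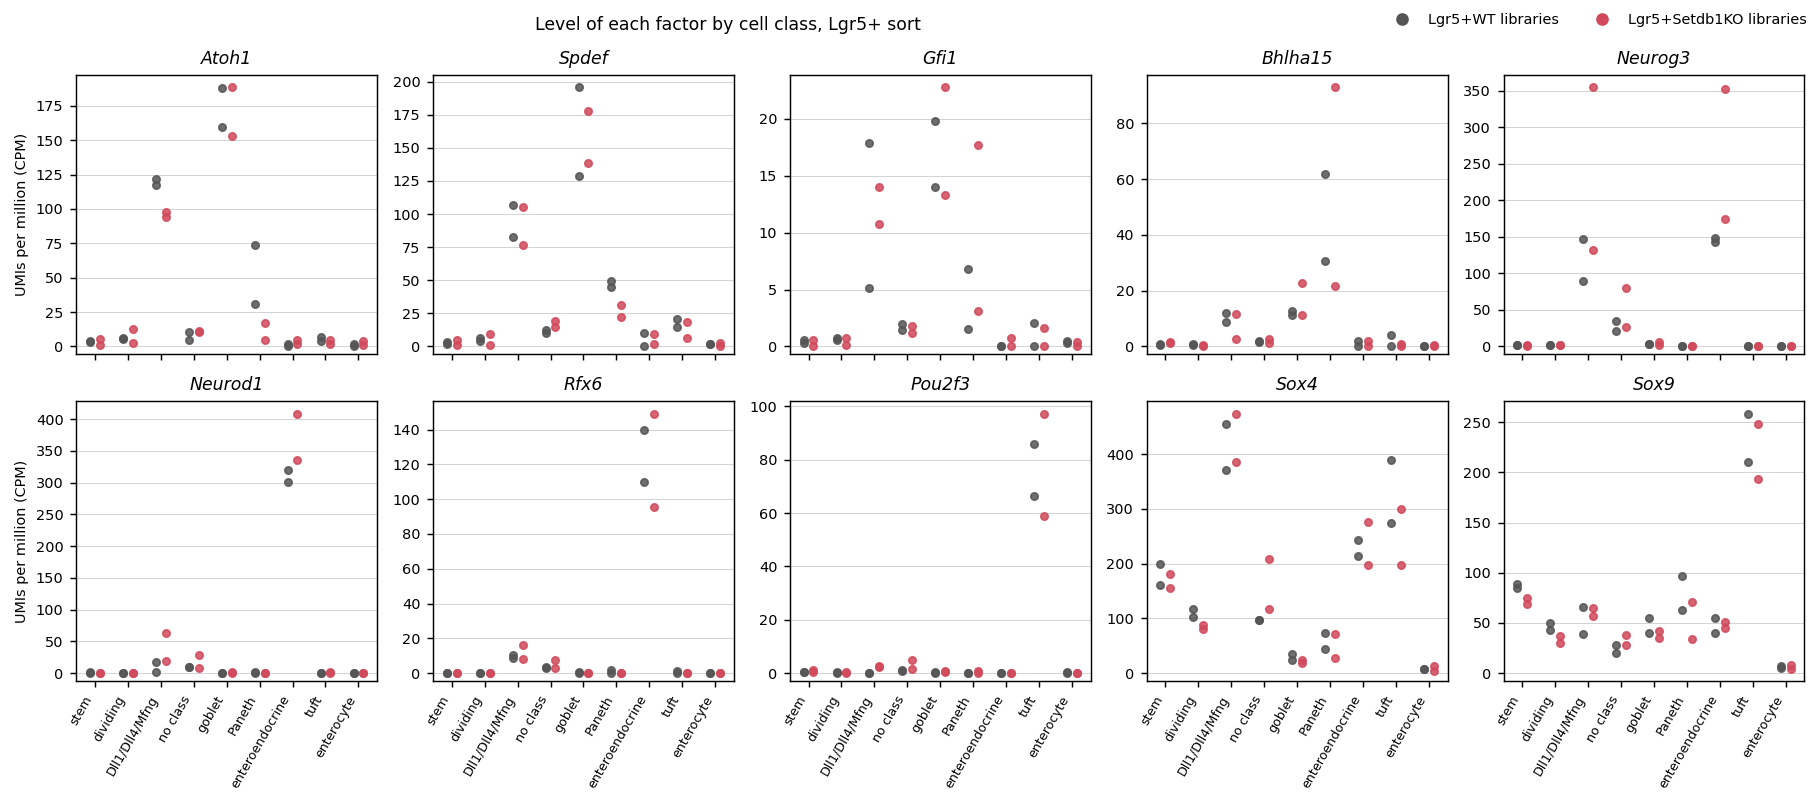
Level of each of the 10 factors in counts per 1000000 UMIs (CPM, linear axis, 1 panel a gene) in 9 classes of the Lgr5+ sort; each point is 1 library, grey for Lgr5+WT and red for Lgr5+Setdb1KO. Atoh1, Spdef and Gfi1 are highest in goblet cells, Bhlha15 in Paneth cells, Neurod1 and Rfx6 in enteroendocrine cells, Pou2f3 and Sox9 in tuft cells, and Neurog3 has a library of Lgr5+Setdb1KO at 352 to 354 CPM in both enteroendocrine and Dll1/Dll4/Mfng-positive barcodes.

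The factors that act after the switch to the enteroendocrine fate had 1 leading class. Neurod1 was at 341 ± 46.6 CPM in enteroendocrine cells and at 25.2 ± 26.3 CPM in the next class, the Dll1/Dll4/Mfng-positive barcodes, and Rfx6 at 124 ± 24.9 CPM against 10.9 ± 3.71 CPM, in both cases without overlap. A Neurod1 UMI was found in 53.3% to 84.7% of enteroendocrine barcodes and in 0.225% to 0.543% of enterocyte barcodes. Neurog3 was different in that 2 classes shared its peak. It was at 204 ± 99.6 CPM in enteroendocrine cells and at 181 ± 118 CPM in Dll1/Dll4/Mfng-positive barcodes, which overlapped, then at 40.5 ± 27.1 CPM in barcodes of no class, which lay below both in all 4 libraries. No Neurog3 UMI was found in any Paneth barcode of the Lgr5+ sort: the largest of the 4 libraries gave 0 of 265 barcodes, which allows a share of up to 1.13% with a UMI (intervals and limits here cover counting error only).

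Pou2f3, the tuft factor, was at 77.1 ± 17.5 CPM in tuft cells and at 2.07 ± 1.89 CPM or less elsewhere, and 64.0% to 73.0% of its UMIs came from tuft cells. Sox9 was also highest in tuft cells, at 228 ± 30.8 CPM, above stem cells at 79.2 ± 9.00 CPM in 4 of 4 libraries without overlap. Paneth cells, at 66.2 ± 26.2 CPM, overlapped the stem level, and Dll1/Dll4/Mfng-positive barcodes, at 56.7 ± 12.3 CPM, overlapped the Paneth level. Sox4 was spread over several classes, with 421 ± 50.7 CPM in Dll1/Dll4/Mfng-positive barcodes, 290 ± 78.9 CPM in tuft cells, 233 ± 34.5 CPM in enteroendocrine cells and 174 ± 19.8 CPM in stem cells, each overlapping its neighbour. It was at 25.4 ± 7.10 CPM in goblet and 7.91 ± 3.78 CPM in enterocyte barcodes.

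Atoh1, Spdef, Gfi1, Neurod1 and Bhlha15 were among the factors with the same leading class in the lineage-traced sort. Gfi1 was at 7.09 ± 2.15 CPM in goblet cells and at 2.13 ± 0.95 CPM in Paneth cells, without overlap. Atoh1 was at 121 ± 27.5 CPM in goblet cells, Spdef at 64.2 ± 11.0 CPM in goblet cells and Neurod1 at 512 ± 223 CPM in enteroendocrine cells, each without overlap with the next class. Bhlha15 was at 15.5 ± 3.24 CPM in Paneth cells and at 8.59 ± 1.51 CPM in goblet cells, again without overlap. Sox9 had its highest mean in stem cells, at 300 ± 77.5 CPM, which overlapped that of enteroendocrine cells (237 ± 170 CPM) and was above it in 3 of 4 libraries. The tuft class had fewer than 20 barcodes in a library and was not compared. Neurog3 was at 45.6 ± 53.1 CPM in enteroendocrine cells, from 36 UMIs in all, and that level overlapped the next. It was at 0 in both WT libraries, with 53 and 23 enteroendocrine barcodes, and at 82.4 and 99.8 CPM in both Setdb1-KO libraries, with 41 and 133 barcodes. A Neurog3 UMI was held by 14 of those 133 barcodes (10.5%), the highest share of the 4 libraries, and the mean share was 3.85%. With so few WT barcodes, 0 UMIs does not show that Neurog3 was absent from these cells in WT.

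The same sums were then tested: each secretory class was compared with the stem and dividing barcodes of the same library in an edgeR quasi-likelihood fit over all genes, with library as a block and p-values adjusted by the Benjamini-Hochberg method over all genes tested. In Lgr5+ goblet cells, where 36.3% of genes were called higher and 34.6% lower, 5 of the 7 factors that passed the filter on low counts were higher and 1 was lower. Spdef (log2 fold change 5.28 ± 0.27), Gfi1 (5.13 ± 0.26), Atoh1 (5.09 ± 0.26), Bhlha15 (4.33 ± 0.22) and Neurog3 (1.02 ± 0.30) rose and Sox4 fell (-2.11 ± 0.13). The Neurog3 call was lost without predicted doublets (log2 fold change 0.49, adjusted p = 0.30) and without Lgr5+WT replicate 2 (0.79, adjusted p = 0.051). In Lgr5+ Paneth cells (17.8% of genes higher, 22.2% lower) Bhlha15 (6.88 ± 0.29), Gfi1 (4.27 ± 0.61), Spdef (3.91 ± 0.24), Atoh1 (3.38 ± 0.24) and Sox9 (1.26 ± 0.16) were higher. With library totals in place of edgeR's TMM scaling factors, an alternative chosen after the data were seen, the median of all genes in Paneth cells moved from -0.10 to -1.28 and the share of higher genes among those called from 44.4% to 6.67%. Bhlha15 was then still higher by 5.88, and Sox9 was not called (0.18, adjusted p = 0.62).

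In Lgr5+ tuft cells (24.8% of genes higher, 23.3% lower) Pou2f3 (7.38 ± 0.24), Sox9 (1.88 ± 0.10), Spdef (1.37 ± 0.41) and Sox4 (0.97 ± 0.09) were higher, and Neurog3 was called lower (adjusted p = 0.045) on 1 UMI in 604 tuft barcodes. That last call was lost on library totals alone (adjusted p = 0.068) and without Lgr5+WT replicate 1 (0.087), Lgr5+WT replicate 2 (0.11) or Lgr5+Setdb1KO replicate 1 (0.14). The call of Spdef was lost with class limits 2 times higher (0.87, adjusted p = 0.065) and without Lgr5+WT replicate 1 (adjusted p = 0.053) or 2 (0.064). In Lgr5+ enteroendocrine cells (34.9% of genes higher, 31.8% lower) Rfx6 (8.54 ± 0.22), Neurod1 (8.24 ± 0.15), Neurog3 (6.27 ± 0.16) and Sox4 (0.37 ± 0.11) were higher, while Atoh1 (-1.93 ± 0.56) and Sox9 (-0.68 ± 0.14) were lower. Without Lgr5+Setdb1KO replicate 2 the calls of Atoh1 (-1.001, adjusted p = 0.22) and Sox4 (0.33, adjusted p = 0.0502) were lost. The call of Sox9 was lost on library totals alone (-0.15), where the median of all genes moved to 0.57 and the share of higher genes among those called from 52.3% to 74.5%. That share moved from 51.5% to 65.8% in tuft and from 51.2% to 40.4% in goblet cells.

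In lineage-traced goblet cells (26.1% of genes higher, 27.5% lower) Spdef (3.63 ± 0.18), Atoh1 (3.38 ± 0.13), Gfi1 (2.77 ± 0.35) and Bhlha15 (2.06 ± 0.31) were higher and Sox4 (-1.14 ± 0.11) and Sox9 (-0.36 ± 0.11) lower, the last not without lineage-traced WT replicate 1 (adjusted p = 0.092) or 2 (0.061). In lineage-traced Paneth cells (17.8% of genes higher, 17.5% lower) Bhlha15 (4.37 ± 0.28), Spdef (2.65 ± 0.31), Atoh1 (2.13 ± 0.21) and Sox9 (0.74 ± 0.15) were called higher, but on library totals alone, where the median of all genes was -1.93 and the share of higher genes among those called moved from 50.5% to 1.08%, Bhlha15 was still higher (2.44), Spdef (0.82) and Atoh1 (0.25) were not called and Sox9 turned to -1.20. In lineage-traced enteroendocrine cells (12.8% of genes higher, 13.0% lower) Neurod1 (8.08 ± 0.31) and Rfx6 (7.74 ± 0.49) were higher, and the share of higher genes among those called was 49.7%, or 70.0% on library totals alone. All fold changes printed as called in these 7 comparisons had an edgeR adjusted p of 0.045 or less. Pou2f3 passed the filter on low counts only in the tuft comparison, and Neurod1 and Rfx6 only in the enteroendocrine comparisons. They passed it through the class where they are high, so their rises there are descriptions.

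The other genes of the secretory programme were taken from a list of 45 regulators, fixed by name: 9 of the Notch pathway, 11 of goblet and Paneth cells, 19 of enteroendocrine cells and 6 of tuft cells. In Lgr5+ enteroendocrine cells all 19 enteroendocrine regulators were tested and higher (34.9% of all genes were), by a median log2 fold change of 8.19 against 0.05 for all genes, with Pax6 at 9.39 and Fev at 9.16. Of the 19, 8 passed the filter on low counts in the goblet, 6 in the Paneth and 7 in the tuft comparison. Many could thus be tested only through the class where they are high, so their count is a description and not a test. In tuft cells, where 24.8% of all genes were higher and 23.3% lower, 5 of the 6 tuft regulators were higher and 1 lower, with Hmx3 and Hmx2 both higher by 9.01. In each of the goblet, Paneth and enteroendocrine comparisons 2 of these 6 passed the filter, so the same limit holds for them. Of the 11 goblet and Paneth regulators, 8 were higher and 2 lower in goblet cells (36.3% and 34.6% of all genes), and 7 were higher and 1 lower in Paneth cells (17.8% and 22.2%). Creb3l4, a transcription factor of the secretory pathway, was higher by 4.74 in goblet cells and by 3.93 in Paneth cells.

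Across the 36 class sums of the Lgr5+ sort (9 classes in each of 4 libraries, log2(CPM + 1)), the genes whose pattern was most like that of each factor were found among 14562 genes. The marker genes that set the classes were left out of this search, so a marker may be more alike than the genes named. These are descriptions over sums that share libraries and depth. Atoh1 was most like Cracr2b (Pearson r = 0.897) and then Spdef (0.891), and Spdef was most like Klf4 (0.900). Neurog3 was most like Insm1 (0.976), followed by Neurod2 (0.941) and Tubb3 (0.938), while Neurod1 was most like Celf3 (0.986) and Rfx6 like Rimbp2 (0.985). Bhlha15 followed Rnase1 (0.933), Gfi1 Rep15 (0.899), Pou2f3 Trib2 (0.966), Sox4 Bcl7a (0.930) and Sox9 Phlda1 (0.908).

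Within single cells, the factors overlapped along the enteroendocrine branch. Over the Lgr5+ libraries, 258 barcodes held a Neurog3 UMI without Neurod1, 267 held both and 523 held Neurod1 without Neurog3. In the order Neurog3 only, both, Neurod1 only, the median share of UMIs on enteroendocrine hormone and granule markers was 0.0578%, 0.897% and 7.26%, and 22.5%, 55.8% and 77.6% of barcodes fell in the enteroendocrine class. Sox4 was at 974, 626 and 187 CPM in the same 3 sets, and it was highest in Neurog3-only and lowest in Neurod1-only barcodes in 3 of 4 libraries. In the remaining library, Lgr5+WT replicate 1, Sox4 was at 993 CPM in Neurog3-only and 1043 CPM in double-positive barcodes. Pooled over the lineage-traced sort, Sox4 was at 186, 522 and 99.8 CPM in 104, 25 and 168 barcodes. Lineage-traced Setdb1-KO replicate 1 was at 1346 CPM in 6 double-positive barcodes. Lineage-traced Setdb1-KO replicate 2, with 17 of the 25, had the Lgr5+ order, at 198, 106.5 and 65.2 CPM. The lineage-traced WT libraries held 2 and 0 double-positive barcodes, too few for an order. In the Lgr5+ sort Rfx6 was at 38.0, 127 and 101 CPM, so it was lowest in Neurog3-only barcodes. None of these genes was used to set the classes, but UMIs of a low gene are missed in many cells that express it, and a barcode with only 1 of the pair may express both.

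**Figure D2:**
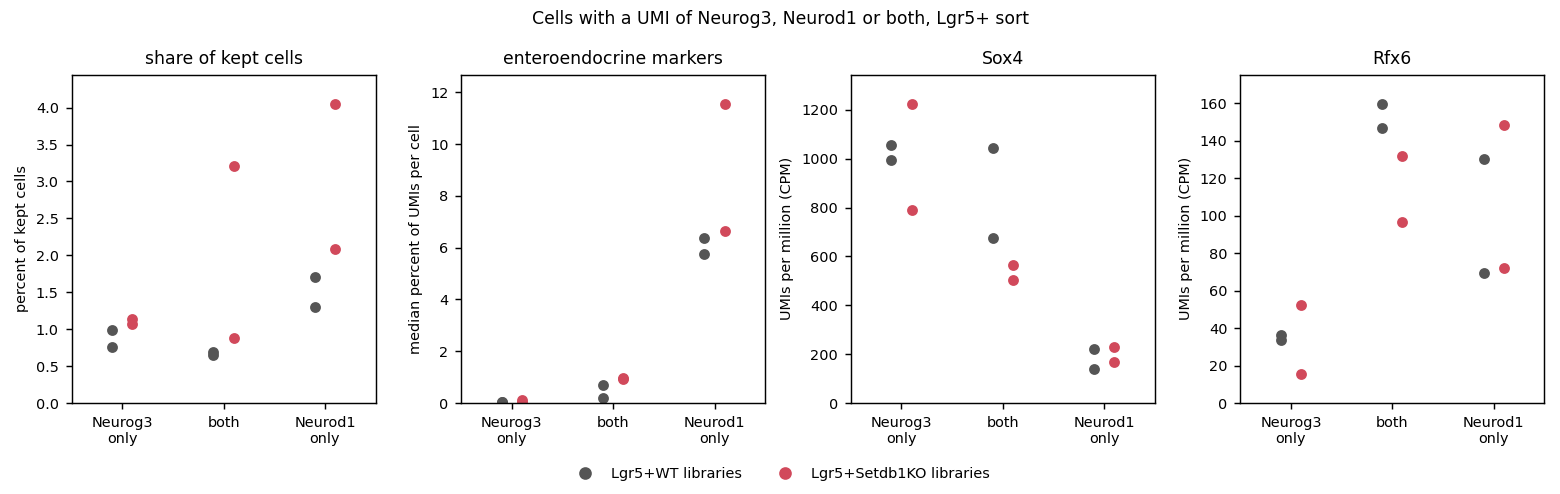
Lgr5+ barcodes with a UMI of Neurog3 only, of both Neurog3 and Neurod1, or of Neurod1 only: their percent of kept cells, their median percent of UMIs on enteroendocrine markers, and the Sox4 and Rfx6 level in CPM (linear axes; points are libraries, grey for Lgr5+WT and red for Lgr5+Setdb1KO). Enteroendocrine-marker UMIs increase from left to right in each library and Sox4 decreases in 3 of 4, with 993 and 1043 CPM in the first sets of Lgr5+WT replicate 1, and 1 Lgr5+Setdb1KO library has 3.21% double-positive and 4.04% Neurod1-only barcodes.

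Atoh1 was found in a smaller share of Neurog3-positive than of Neurog3-negative barcodes in 4 of 4 libraries of the Lgr5+ sort. An Atoh1 UMI was found in 8.70% and 4.95% of Neurog3-positive barcodes in Lgr5+WT and in 3.23% and 5.20% in Lgr5+Setdb1KO, against 13.7% and 12.0%, and 14.9% and 11.4%, of Neurog3-negative barcodes. Neurog3-positive barcodes were shallower, with a median of 2856 to 5666 against 4716 to 9476 UMIs. Neurog3-negative barcodes include most goblet cells, which held 70.2% to 85.2% of Atoh1 UMIs. Pooled over the Lgr5+ libraries Atoh1 was at 22.2 CPM in Neurog3-only and 11.2 CPM in double-positive barcodes. In that order it was at 30.1 and 0 CPM in Lgr5+WT replicate 2 and at 15.3 and 4.94 CPM in Lgr5+Setdb1KO replicate 1. It differed little in Lgr5+WT replicate 1 (26.3 and 27.2 CPM) and Lgr5+Setdb1KO replicate 2 (18.7 and 18.2 CPM). By class it was at 172 CPM in goblet, 108 CPM in Dll1/Dll4/Mfng-positive and 9.16 CPM in no-class barcodes. It was at 6.81 CPM in dividing and 3.35 CPM in stem barcodes. The parts of depth and of class make-up in this gap were not tested. Among lineage-traced cells, where Neurog3-positive barcodes were few and deeper (medians of 2595 to 5600 against 957 to 2083 UMIs), the gap had no one direction. Atoh1 was found there in 4 of 28 and 0 of 6 Neurog3-positive barcodes of WT and 3 of 30 and 3 of 65 of Setdb1-KO, against 5.20%, 4.64%, 6.81% and 7.14% of Neurog3-negative barcodes, so the share was higher with Neurog3 in replicate 1 of both genotypes and lower in replicate 2 of both. Within Dll1/Dll4/Mfng-positive barcodes of the Lgr5+ sort, Atoh1 was found in 0 of 10, 3 of 15, 1 of 16 and 1 of 14 barcodes with Neurog3 and in 50.9%, 62.5%, 53.6% and 42.0% of those without, a gap in the same direction in 4 of 4 libraries, with median depths of 3278 to 7419 against 5998 to 10402 UMIs. Spdef was found in 73.4%, 58.9%, 75.4% and 48.2% of Atoh1-positive goblet barcodes and in 60.3%, 51.1%, 60.3% and 47.2% of Atoh1-negative ones, which were shallower.

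Turning to the deletion of Setdb1, the question was whether loss of this methyltransferase in stem cells changes the factors that direct secretory fate. In the Lgr5+ sort none of the 10 factors passed the threshold of 0.05 on the adjusted p over all genes (edgeR quasi-likelihood on UMIs summed per library), where 0.812% of 13662 genes were called higher and 0.527% lower. 5 of the 10 had an unadjusted p under 0.05, as did 17.5% of all genes. DESeq2 called none, and library totals in place of TMM factors called Neurod1 (adjusted p = 0.042). The median log2 fold change of the 10 was 0.24 against -0.01 for all genes. In a sum over a library, more cells of a type and more RNA per cell cannot be told apart.

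The factors of the enteroendocrine branch had the largest fold changes. Neurog3 was at 8.08 and 8.25 CPM in Lgr5+WT and at 28.0 and 9.68 CPM in Lgr5+Setdb1KO. Both Setdb1-KO libraries were above both WT libraries, but replicate 1 was far above and replicate 2 just above (log2 fold change 1.16 ± 0.40, adjusted p = 0.21). Neurod1 was at 5.71 and 7.16 CPM in WT and at 20.3 and 10.1 CPM in Setdb1-KO, without overlap (1.20 ± 0.29, adjusted p = 0.11). Rfx6 was at 2.65 and 2.56 CPM against 7.28 and 3.03 CPM, also without overlap (0.93 ± 0.36, adjusted p = 0.25). These 3 differences rested on Lgr5+Setdb1KO replicate 1: without it the log2 fold changes were 0.31, 0.71 and 0.29, and without Lgr5+Setdb1KO replicate 2 all 3 were called, at 1.72 (adjusted p = 0.00057), 1.59 (0.0031) and 1.43 (0.0080). The tuft factor Pou2f3 was at 1.61 and 1.52 CPM against 3.33 and 1.86 CPM (0.69 ± 0.28, adjusted p = 0.27).

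Atoh1, Spdef and Gfi1 stayed within the spread of the libraries. Atoh1 was at 35.0 and 30.2 CPM in Lgr5+WT and at 33.5 and 32.4 CPM in Lgr5+Setdb1KO, with overlapping values (0.03 ± 0.08). Spdef differed by 0.06 ± 0.16, Gfi1 by 0.07 ± 0.22 and Bhlha15 by 0.41 ± 0.26. Sox9 was at 50.2 and 59.3 CPM against 47.5 and 39.1 CPM, so both Setdb1-KO libraries were below both WT libraries (-0.34 ± 0.13, adjusted p = 0.24), and Sox4 differed by -0.20 ± 0.10. By CPM, 4 of the 10 factors were higher in both Setdb1-KO libraries than in both WT libraries, where 18.6% of genes were, and by the share of cells with a UMI 3 were, where 4.57% of genes were. The 3 were Neurog3, Neurod1 and Rfx6. With 2 libraries against 2 the smallest p that an exact two-sided permutation test can reach is 0.33.

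In the lineage-traced sort 3 of the 10 factors were called, 2 higher (1.54% of 12205 genes were) and 1 lower (7.19% were), and the median log2 fold change of the 10 was 0.48 against 0.01 for all genes. Neurod1 was at 3.19 and 1.36 CPM in WT and at 8.78 and 6.92 CPM in Setdb1-KO, without overlap (1.12 ± 0.30, adjusted p = 0.034). Neurog3 was at 1.67 and 1.49 CPM in WT and at 5.89 and 4.00 CPM in Setdb1-KO, again without overlap (1.06 ± 0.29, adjusted p = 0.040). In empty droplets Neurog3 was at 1.49 and 0 CPM in WT and 4.13 and 2.97 CPM in Setdb1-KO, from at most 1 UMI a library. Neurod1 was there at 1.49 and 0.909 CPM in WT and at 0 in both Setdb1-KO libraries. The levels in cells rest on 11 to 185 UMIs a library. The share of cells with a Neurog3 UMI was 0.255% ± 0.143 in WT and 0.629% ± 0.00842 in Setdb1-KO (SD, n = 2). At an equal depth of 1000 UMIs a cell it was 0.164% ± 0.0322 and 0.520% ± 0.178.

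**Figure D3:**
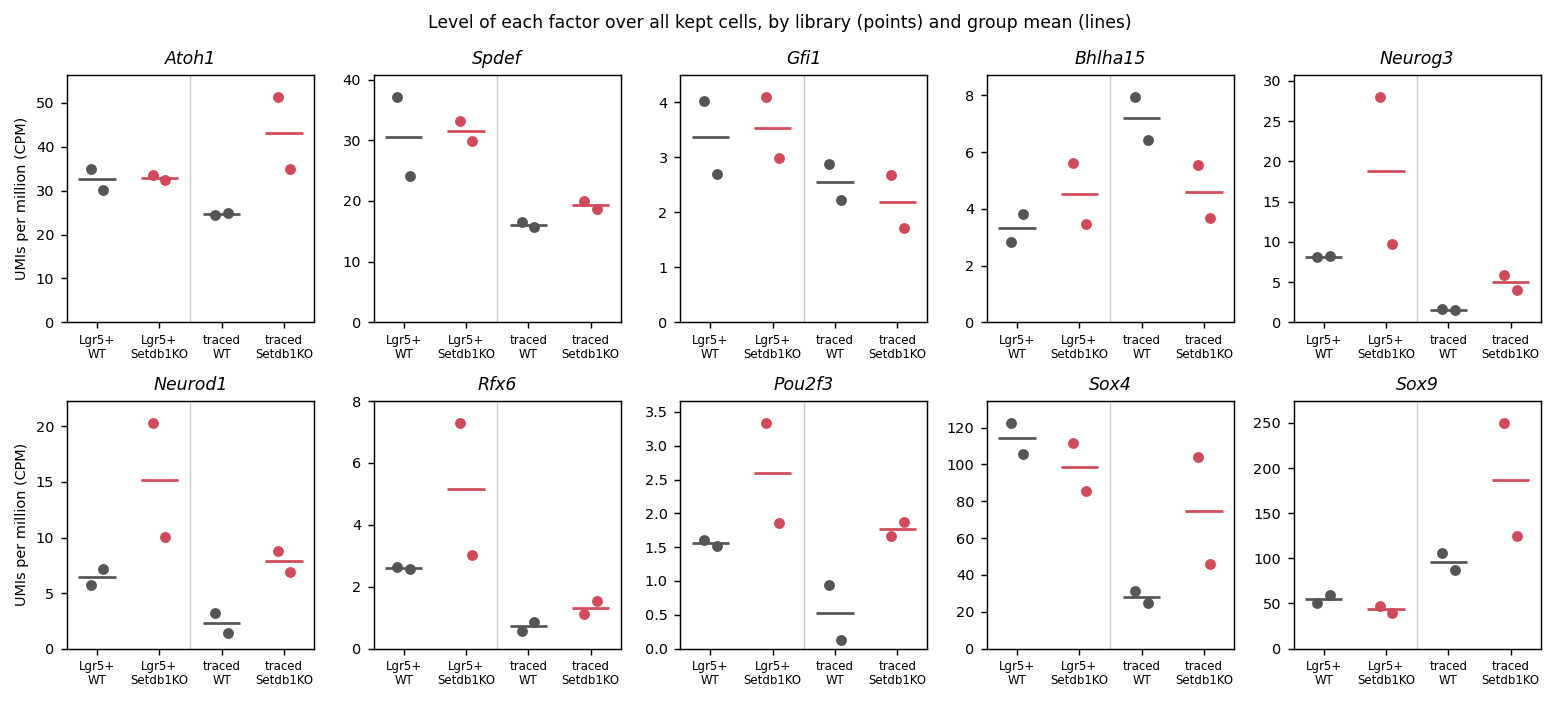
Level of each factor over all kept cells in counts per 1000000 UMIs (CPM, linear axis from 0, 1 panel a gene); points are the 2 libraries of each group, lines the group means, grey for WT and red for Setdb1-KO. Neurog3 and Neurod1 lie higher in both Setdb1-KO libraries of both sorts, and Bhlha15 lies lower in both lineage-traced Setdb1-KO libraries, at 5.56 and 3.67 against 7.94 and 6.43 CPM.

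These are 3.13-fold (Neurog3) and 3.45-fold (Neurod1) differences in mean CPM, and the fitted fold changes are smaller because TMM factors scale the libraries. Neurog3 was not called with DESeq2 (adjusted p = 0.19), without lineage-traced WT replicate 1 (0.33) or replicate 2 (0.14), with a UMI limit 2 times higher (0.072), without predicted doublets (0.052), in a fit of all 8 libraries (0.21), or when barcodes of no class and of 2 classes were left out (log2 fold change 0.80, adjusted p = 0.20). These are 7 of 16 alternatives. Neurod1 was not called in 4 of 16, with DESeq2 (0.078), with the higher UMI limit (0.083), in a fit of all 8 libraries (0.084) and without lineage-traced WT replicate 2 (log2 fold change 0.80, adjusted p = 0.24). Both kept their direction in each of the 16 alternatives run on all kept cells.

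Bhlha15 went the other way. It was at 7.94 and 6.43 CPM in lineage-traced WT and at 5.56 and 3.67 CPM in lineage-traced Setdb1-KO, without overlap (0.642-fold in mean CPM, fitted log2 fold change -1.23 ± 0.24, adjusted p = 0.0051). In empty droplets it was at 7.43 and 3.64 CPM in WT (5 and 4 UMIs). There it was at 4.13 and 0 CPM in Setdb1-KO (1 and 0 UMIs). The part of this background in the Bhlha15 difference was not tested. The call held without each of the 4 libraries in turn but not on library totals alone (-0.70, adjusted p = 0.092). The share of cells with a Bhlha15 UMI was 1.52% ± 0.404 in WT and 0.942% ± 0.0478 in Setdb1-KO, but at an equal depth of 1000 UMIs it was 0.407% ± 0.111 and 0.440% ± 0.0476, with overlap. Its class of highest level, the Paneth cells, held 771 and 171 barcodes in WT and 324 and 376 in Setdb1-KO, which is 9.81% and 4.41% against 6.73% and 3.67% of kept barcodes, with overlap.

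The other 7 factors were not called in the lineage-traced sort. Sox4 was at 31.2 and 24.6 CPM in WT and 104 and 46.0 CPM in Setdb1-KO (0.84 ± 0.30, adjusted p = 0.12), and was called in 4 of 16 alternatives, among them no filter on low counts (0.023) and without lineage-traced Setdb1-KO replicate 2 (1.22, adjusted p = 0.0016). Without Setdb1-KO replicate 1, the library at 104 CPM, it was 0.32 (adjusted p = 0.39). Sox9 was at 106 and 86.7 CPM against 250 and 125 CPM (0.39 ± 0.30, adjusted p = 0.50). Gfi1 (-0.84 ± 0.31), Pou2f3 (0.96 ± 0.51), Rfx6 (0.57 ± 0.46), Atoh1 (0.25 ± 0.23) and Spdef (-0.26 ± 0.21) had adjusted p-values of 0.13 to 0.58. Atoh1 was at 24.5 and 24.9 CPM in WT cells and 51.4 and 35.0 CPM in Setdb1-KO cells. In empty droplets it was at 20.8 and 10.0 CPM in WT and 28.9 and 20.8 CPM in Setdb1-KO. Spdef was at 16.5, 15.7, 20.0 and 18.7 CPM in cells and 11.9, 12.7, 8.26 and 20.8 CPM in empty droplets, in the same order. Leaving out each library in turn gave 0.48 to 3.23 for Pou2f3, of which lineage-traced WT replicate 2 held 1 UMI, and 0.11 to 0.82 for Rfx6, neither of which was called in those fits. By CPM 8 of the 10 factors were higher in both Setdb1-KO libraries, but so were 62.4% of all genes, and by the share of cells 7 were, with 57.5% of all genes. Paneth markers took 34.2% and 31.6% of all kept UMIs in WT and 7.39% and 5.00% in Setdb1-KO, which leaves a smaller share of the UMIs to all other genes in WT. With library totals in place of TMM factors, the median of all genes moved from 0.01 to 0.54 and 6 factors were called higher, Atoh1 (0.80), Neurog3 (1.59), Neurod1 (1.66), Sox4 (1.41), Sox9 (0.96) and Pou2f3 (1.44), and none lower. Of all 12205 genes 3804 were then called, and the share of higher ones among those called moved from 17.6% to 87.1%. Of the 10 factors, Neurod1 and Neurog3 had the largest positive fold changes under both scalings.

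**Figure D4:**
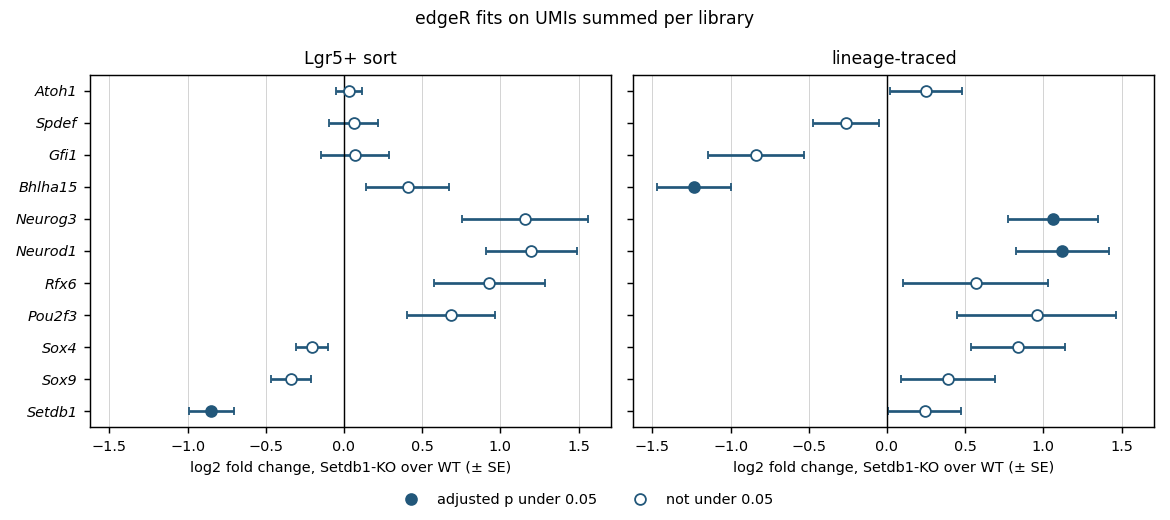
Log2 fold change of Setdb1-KO over WT for the 10 factors and Setdb1 in edgeR fits on UMIs summed per library (points, with the standard error as bars), in the Lgr5+ sort (left) and the lineage-traced sort (right); filled points have an adjusted p under 0.05. In the Lgr5+ sort only Setdb1 is filled, at -0.85, and in the lineage-traced sort Bhlha15 is filled at -1.23, Neurog3 at 1.06 and Neurod1 at 1.12.

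In the interaction fit, library totals alone moved the median of all genes to 0.56, the share of higher ones among those called from 19.9% to 84.3%, and called Sox4 (1.61) and Sox9 (1.30). The values that follow use TMM factors. A test of the difference between both effects (the interaction of genotype and sort over all 8 libraries) called 1 of the 10 factors, with 7.58% of 13781 genes called. Bhlha15 differed by -1.64 ± 0.36 (adjusted p = 0.017), from a difference of 0.41 in the Lgr5+ sort to one of -1.23 in the lineage-traced sort. The call was lost on library totals alone (-1.13, adjusted p = 0.066) and without Lgr5+WT replicate 1 (0.061), Lgr5+Setdb1KO replicate 1 (0.056), lineage-traced WT replicate 1 (0.12) or lineage-traced Setdb1-KO replicate 2 (0.056). For Neurog3 (-0.10 ± 0.62) and Neurod1 (-0.09 ± 0.47) the difference between sorts was small beside its error. Sox4 had the largest positive difference, 1.05 ± 0.36, at an adjusted p of 0.10.

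The sums were next split by class. Enteroendocrine cells were 2.14% and 2.61% of kept barcodes in Lgr5+WT and 6.32% and 3.83% in Lgr5+Setdb1KO, and 0.674% and 0.593% against 0.851% and 1.30% in the lineage-traced sort. Both Setdb1-KO libraries were above both WT libraries in each sort. In the Lgr5+ sort the library with the highest enteroendocrine share, Lgr5+Setdb1KO replicate 1, was also the highest in Neurog3, Neurod1 and Rfx6, whereas lineage-traced Setdb1-KO replicate 2 had the higher enteroendocrine share and less Neurog3 and Neurod1 CPM than replicate 1. The part of cell shares in the summed differences was not tested. The enteroendocrine-marker genes of Lgr5+Setdb1KO replicate 1 summed to 4778 CPM, against 1057 to 2156 CPM in the other Lgr5+ libraries. Tuft cells were 1.68% and 2.30% in Lgr5+WT and 3.21% and 2.54% in Lgr5+Setdb1KO, goblet cells 15.7% and 13.1% against 16.7% and 16.0%, and Paneth cells 1.51% and 1.24% against 0.726% and 2.32%. These are shares of sorted cells, and the part of the sort gate in them was not tested.

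Within the classes of the Lgr5+ sort no factor was called in any of 9 comparisons. The share of genes called in either direction was 0.498% in stem cells, 0.697% in dividing cells, 0.415% in Dll1/Dll4/Mfng-positive barcodes, 1.25% in barcodes of no class, 0.691% in enterocytes, 0.394% in goblet cells, 0.224% in Paneth cells, 0.161% in tuft cells and 0.0245% in enteroendocrine cells. Of the 10 factors, 2 to 7 passed the filter in a class, and an unadjusted p under 0.05 was found in 7 of the 48 tests of a factor over the 9 comparisons (14.6%), against 9.78% of the tests of all genes. Setdb1 itself was lower in dividing cells (-1.03 ± 0.17, adjusted p = 0.039), and its fold changes of -0.79 to -0.26 in stem cells, barcodes of no class, enterocytes and goblet cells were not called. Neurog3 within enteroendocrine cells was at 148 and 143 CPM in WT and at 352 and 175 CPM in Setdb1-KO, without overlap (0.83 ± 0.27, adjusted p = 0.63). It was called there with no filter on low counts (0.047) and without Lgr5+Setdb1KO replicate 2 (1.21, adjusted p = 2.6e-07), and without Lgr5+Setdb1KO replicate 1 it was 0.32 (adjusted p = 0.90). In Dll1/Dll4/Mfng-positive barcodes it was at 146.5 and 89.7 CPM against 354 and 132 CPM, with overlap (1.06 ± 0.31, adjusted p = 0.31). That difference was called in 5 of 13 alternatives, among them no filter on low counts (0.00045), without predicted doublets (0.0093), without Lgr5+WT replicate 1 (1.38, adjusted p = 2.5e-05) and without Lgr5+Setdb1KO replicate 2 (1.55, adjusted p = 2.4e-09), and the log2 fold change ranged from 0.205 to 1.55 as each library was left out. Neurod1 within enteroendocrine cells differed less, at 302 and 320 CPM against 408 and 335 CPM (0.25 ± 0.20, adjusted p = 0.92).

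A UMI of Neurog3 was found in 17.6% and 20.0% of enteroendocrine barcodes in Lgr5+WT and in 32.2% and 22.4% in Lgr5+Setdb1KO, and at an equal depth of 2000 UMIs in 16.1% and 15.5% against 25.4% and 19.4%. In Setdb1-KO replicate 1, 3.21% of all kept barcodes held both Neurog3 and Neurod1, against 0.652% to 0.884% in the other 3 libraries. Barcodes with Neurog3 and no Neurod1 were 0.755% and 0.995% in Lgr5+WT and 1.07% and 1.14% in Lgr5+Setdb1KO, a smaller gap. Sox4 in barcodes of no class was at 0.69 ± 0.19 on the log2 scale (adjusted p = 0.12), and in dividing cells at -0.38 ± 0.09 (adjusted p = 0.12).

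Within the lineage-traced classes the share of genes called in either direction was 1.41% in stem cells, 1.65% in dividing cells, 5.19% in barcodes of no class, 22.3% in enterocytes, 2.43% in goblet cells, 5.38% in Paneth cells and 6.07% in enteroendocrine cells. Of the 7 comparisons, Bhlha15 in Paneth cells was the only call among the 10 factors (-1.29 ± 0.40, adjusted p = 0.032), of 5 that passed the filter there. Its CPM overlapped between genotypes: it was at 13.2 and 18.2 CPM in lineage-traced WT Paneth cells and at 18.3 and 12.1 CPM in Setdb1-KO, which overlap. With library totals in place of TMM factors the fold change was -0.01 (adjusted p = 0.98), while the median of all genes in that class moved from 0.0029 to 1.26 and the share of higher ones among those called from 30.6% to 99.1%. The call was also lost without lineage-traced WT replicate 1 (adjusted p = 0.17), WT replicate 2 (0.66) or Setdb1-KO replicate 2 (0.10), and in 8 of 13 alternatives in all.

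The Paneth classes compared there were unlike in several respects. Their median depth was 8598 and 7349 UMIs in WT and 1369 and 1560 UMIs in Setdb1-KO, and 10.8% and 12.3% of barcodes against 4.63% and 3.99% held a Bhlha15 UMI, from 88, 23, 16 and 16 UMIs. A Paneth barcode had to exceed the Paneth-marker share of empty droplets, so the limit was 52.6% and 56.9% of UMIs in WT and 24.8% and 22.0% in Setdb1-KO, and 62.2% of all lineage-traced Paneth barcodes lay within 1.5 times their limit. The part of depth and of this limit in the fold change was not tested. In the Lgr5+ sort Bhlha15 in Paneth cells was at 30.7 and 61.8 CPM in WT and 92.9 and 21.7 CPM in Setdb1-KO, so the Setdb1-KO libraries held both the highest and the lowest value.

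**Figure D5:**
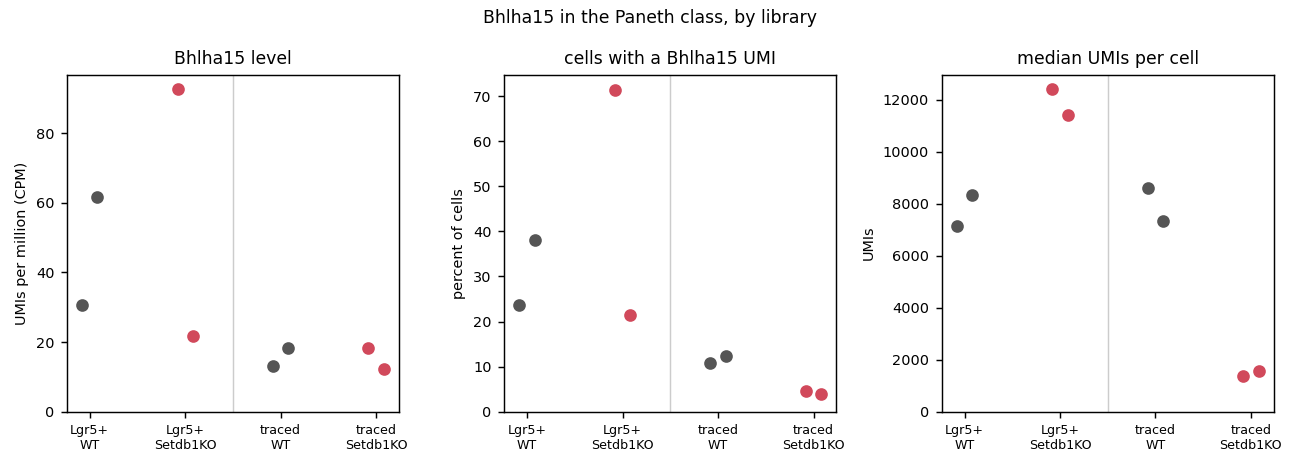
Bhlha15 in barcodes of the Paneth class: its level in counts per 1000000 UMIs (CPM), the percent of barcodes with a Bhlha15 UMI and the median UMIs per barcode (linear axes from 0), with 1 point a library, grey for WT and red for Setdb1-KO. In the lineage-traced sort the CPM of the genotypes overlap, at 13.2 and 18.2 against 18.3 and 12.1, while the percent of barcodes and the median depth are lower in both Setdb1-KO libraries.

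In lineage-traced barcodes of no class, which made up the largest class in each of the 4 libraries, Neurog3 (1.46 ± 0.52, adjusted p = 0.088), Bhlha15 (-1.36 ± 0.46, adjusted p = 0.061) and Sox4 (0.92 ± 0.32, adjusted p = 0.077) came near the threshold without passing it. Neurog3 could not be tested in lineage-traced enteroendocrine cells, where it did not pass the filter on low counts. Neurod1 there differed by 0.07 ± 0.43 (adjusted p = 0.97) in classes of 23 to 133 barcodes.

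Of the 45 other regulators, 1 was called in the Lgr5+ sort, where 0.812% of all genes were called higher, the enteroendocrine factor Lmx1a (1.94 ± 0.28, adjusted p = 0.031), which directs serotonin-producing enterochromaffin cells. The 19 enteroendocrine regulators, all tested, had a median log2 fold change of 1.06, against -0.01 for all genes. Without Lgr5+Setdb1KO replicate 1, the library with the highest enteroendocrine share, that median was 0.54 and 1 of the 19 was called, and without Lgr5+Setdb1KO replicate 2 it was 1.496 and 13 were called. DESeq2 called 7 of the 19. Isl1 was at 7.82 and 7.96 CPM in Lgr5+WT and at 26.8 and 11.2 CPM in Lgr5+Setdb1KO. The call of Lmx1a was lost in 5 of 16 alternatives, which include leaving out Lgr5+WT replicate 1 (adjusted p = 0.10) or 2 (0.072). The medians were -0.17 for the 9 Notch pathway genes, 0.12 for the 11 goblet and Paneth regulators and 0.33 for the 6 tuft regulators. In the lineage-traced sort 36 of the 45 passed the filter, with 3 called higher (1.54% of all genes were) and 1 lower (7.19% were). Isl1 (1.63 ± 0.40) and Insm1 (1.27 ± 0.32), both of the enteroendocrine list, and Hmx2 (1.99 ± 0.51), of the tuft list, were higher. Klf4, a zinc finger factor of goblet cells that differentiated enterocytes also express, was lower (-1.18 ± 0.26), and it was also the 1 regulator called in the interaction fit (-1.49 ± 0.25, adjusted p = 0.0034), there in each of 11 alternatives. Over all lineage-traced cells the calls were lost in 3 (Klf4), 4 (Isl1), 4 (Insm1) and 3 (Hmx2) of 16 alternatives. The counts depended on the scaling. On library totals alone 3804 of all 12205 genes were called, most of them higher. There 4 of 7 Notch pathway and 5 of 13 enteroendocrine regulators were called higher. So were 3 of 11 goblet and Paneth and 5 of 5 tuft regulators, and 0 were lower. Klf4 was not called on library totals (-0.62, adjusted p = 0.071) or without WT replicate 1 (0.11) or 2 (0.065), Isl1 not without WT replicate 2 (0.066) or Setdb1-KO replicate 2 (0.10), Insm1 not without WT replicate 1 (0.55), and Hmx2 not without WT replicate 1 (1.08, adjusted p = 0.73) or Setdb1-KO replicate 2 (0.18).

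Within the Lgr5+ classes regulators were called only among barcodes of no class, 4 of the 29 tested, where 1.25% of all genes were called. Foxa3, a forkhead factor of the goblet and Paneth list, was higher (1.14 ± 0.18), as were Ascl2 (1.20 ± 0.19) and Hes6 (0.68 ± 0.13), and Onecut2, of the enteroendocrine list, was lower (-0.64 ± 0.12). Within the lineage-traced classes Klf4 was lower in barcodes of no class (-1.46 ± 0.32; 5.19% of all genes called), and in enterocytes, where 22.3% of all genes were called, 3 of the 13 regulators tested were, Klf4 (-4.41 ± 0.46) lower and Ehf (1.18 ± 0.38) and Jag1 (1.40 ± 0.47) higher. Notch2 was higher in Paneth cells (1.22 ± 0.40, adjusted p = 0.049), the 1 call of 18 tested in a class where 5.38% of all genes were called and library totals moved the median of all genes to 1.26. The call of Notch2 was lost in 9 of 13 alternatives, that of Jag1 in 7 of 12 and that of Ehf in 5 of 13, while Klf4 was called in each of the 13 in both classes. In the Lgr5+ barcodes of no class, class limits 2 times higher ended all 4 calls (Foxa3 0.40, Ascl2 0.59, Hes6 0.51 and Onecut2 -0.40), and DESeq2 also ended that of Onecut2.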

How the data were processed

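The deposited files are raw UMI count matrices (barcodes by genes) of 8 libraries, which the authors made from 3′ droplet reads with Cell Ranger 6.1.1 on mm10 per the labels and the study's methods, while the matrix headers name another release; cells had been fixed and frozen before capture. The authors removed doublets and filtered cells in Seurat 5.0.3, but the deposited matrices hold all barcodes, so filters were applied anew: 1000 or 500 to 18000 UMIs and under 5% mitochondrial UMIs. Doublets were kept, and predicted ones were left out as an alternative. These were the barcodes with the highest Scrublet scores (scanpy 1.11.5). Their share was set beforehand at 0.8% per 1000 kept barcodes, which gave 2.32% to 9.14% a library. Total UMIs ranged from 16881518 to 81876035 a library. A barcode was given a class when at least 3 UMIs fell on a marker list and their share passed a limit (goblet 1%, Paneth 5%, tuft 0.2%, enteroendocrine 0.5%, enterocyte 0.7%, T cell 0.1%, dividing 0.1%, stem 0.2%) and 1.5 times that of empty droplets (barcode ranks 45001 to 90000) of its library. A differentiated class (goblet, Paneth, tuft, enteroendocrine, enterocyte or T cell) came before Dll1/Dll4/Mfng-positive, which came before dividing and then stem. Barcodes of 2 differentiated classes were left out of class sums, and a class needed 20 barcodes in every library. Sums per library were tested with edgeR 4.0.16 (TMM, filterByExpr, quasi-likelihood, R 4.3.3), with p-values adjusted over all genes tested and a threshold of 0.05. Thinning was to 2000 (Lgr5+) or 1000 (lineage-traced) UMIs, leaving out shallower barcodes. Shares of cells were compared without intervals, and the limit for 0 counts uses 3 counts. With 2 libraries a group, the edgeR p-values rest on a spread between libraries that is estimated with information from all genes. They do not measure the spread of 1 gene's libraries alone. DESeq2 1.42.0 was an alternative. The fits were tested on simulated data. The rule for named genes took all 10 factors, Setdb1 as the targeted gene, at most 5 called genes of the regulator list in a comparison by smallest adjusted p, and the 3 most alike genes of each factor among those averaging 5 UMIs a library, class markers left out. The factors and lists were chosen with earlier results of these data known. Promoters came from RefSeq (GRCm38.p6).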

Additional observations from a re-analysis of the deposited data

Results flagged for a closer look

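The difference between Setdb1-KO and WT was called different between the sorts for Bhlha15 and for Setdb1 itself, by the test of the interaction of genotype and sort in edgeR over 8 libraries. That is 1 of the 10 factors, near the share of all genes, of which 7.58% of 13781 were called. For Bhlha15 the log2 fold change in the lineage-traced sort minus that in the Lgr5+ sort was -1.64 ± 0.36 (adjusted p = 0.017), with lower CPM in both lineage-traced Setdb1-KO libraries and overlapping CPM in the Lgr5+ sort. The Bhlha15 call was lost in 5 of 11 alternatives, on library totals alone (adjusted p = 0.066) and without Lgr5+WT replicate 1 (0.061), Lgr5+Setdb1KO replicate 1 (0.056), lineage-traced WT replicate 1 (0.12) or lineage-traced Setdb1-KO replicate 2 (0.056). For Setdb1 the difference was 1.09 ± 0.27 (adjusted p = 0.033), with lower CPM in both Lgr5+Setdb1KO libraries and higher CPM in both lineage-traced Setdb1-KO libraries. The Setdb1 call was lost without Lgr5+WT replicate 1 (adjusted p = 0.10) or 2 (0.078), Lgr5+Setdb1KO replicate 1 (0.12) or lineage-traced WT replicate 2 (0.10). Groups of 2 libraries were not searched for outlying samples.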

How the results depend on the processing

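Counts of called factors and genes moved with the processing, and the cause was not tested beyond what each alternative changes. Of 679 alternative values of single-factor fold changes between genotypes, 572 kept direction and side of the threshold, 35 lost and 24 gained a call and 48 changed sign; for the secretory classes against undifferentiated cells these numbers were 289, 17, 8 and 3 of 317. Library totals alone, leaving out barcodes of no class, and leaving out defensin UMIs were chosen after the data were seen. In the Lgr5+ sort the count of factors called, 0, was 1 on library totals alone, and the 183 genes called became 502 with DESeq2, 35 without the filter on low counts, 51 with the replicate block and 363 on library totals. Within Lgr5+ classes, where 0 factors were called, the dividing class gave 1 without the filter and 1 with the block, the Dll1/Dll4/Mfng-positive barcodes 2, 1 and, without predicted doublets, 1, the barcodes of no class 2 and 2, and the enteroendocrine class 1 without the filter. In the lineage-traced sort the 3 called factors were 1 with DESeq2, 1 with the UMI limit 2 times higher, 1 in a fit of 8 libraries and 6 on library totals, and the 1066 genes became 2579 with the block and 3804 on library totals. In barcodes of no class the count was 3 with the block, 1 with a mitochondrial limit of 10% and 1 with class limits 2 times higher, against 0, and the 1 call in Paneth cells became 0 without the filter, 0 with the higher UMI limit, 0 with barcodes of 2 classes kept, 0 without defensin UMIs and 3 on library totals. The interaction called 2 factors without the filter and 2 on library totals, against 1, and 1568 and 3293 genes against 1045. In tuft against undifferentiated cells 3 factors were called with class limits 2 times higher, against 5. Factors whose shares of cells did not overlap were 5 after thinning in the Lgr5+ sort, against 3, and 5 against 8 in the lineage-traced sort. Before thinning, 4.57% and 57.5% of all genes had a higher share in both Setdb1-KO libraries. The share of all genes was not computed after thinning, so these counts are descriptions. The counts of called factors by class are likewise given without the share of all genes under each alternative.

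In Lgr5+ goblet cells Atoh1 was 0.026 without predicted doublets, Spdef 0.0078 with the block, 0.021 without doublets and 0.015 with class limits 2 times higher, and Gfi1 -0.076 with those limits. In tuft cells Pou2f3 was -0.00036 with those limits and -0.049 with barcodes of 2 classes kept, and in enteroendocrine cells Rfx6 was 0.038 with the higher UMI limit. In lineage-traced cells Spdef was 0.26 on library totals, Sox9 in stem cells 0.0415 with class limits 2 times higher, and Spdef in goblet cells 0.053 with the higher UMI limit and 0.0014 without doublets. On library totals the interaction was 0.22 for Spdef, 0.38 for Neurog3, 0.41 for Neurod1 and 0.078 for Rfx6, Spdef in Lgr5+ enteroendocrine cells was 0.23 and Sox9 in lineage-traced Paneth cells -1.20.

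Leaving out each library in turn, the lone sample of an arm being assumed to vary like the others, gave 0 to 3 called factors and 65 to 527 genes in the Lgr5+ sort, and 1 to 4 factors and 586 to 2449 genes in the lineage-traced sort. By class the ranges were 0 to 2 (Lgr5+ dividing and Dll1/Dll4/Mfng-positive), 0 to 3 (Lgr5+ no class), 0 to 1 (Lgr5+ goblet and enteroendocrine, lineage-traced no class, goblet and Paneth). The interaction called 0 to 2 factors and 529 to 2118 genes, tuft against undifferentiated cells 3 to 5 factors and lineage-traced enteroendocrine against undifferentiated cells 2 to 4. Fold changes that changed sign ranged, over all Lgr5+ cells, from -0.018 to 0.075 (Atoh1), -0.17 to 0.33 (Spdef) and -0.14 to 0.31 (Gfi1). Within Lgr5+ classes they ranged from -0.16 to 0.050 (stem, Sox4), -0.14 to 0.12 (goblet, Atoh1), -0.26 to 0.29 (goblet, Spdef), -0.31 to 0.43 (goblet, Gfi1), -0.17 to 1.23 (Paneth, Bhlha15), -0.27 to 0.34 (tuft, Pou2f3) and -0.31 to 0.20 (enteroendocrine, Rfx6). In lineage-traced cells they ranged from -0.013 to 0.70 (Sox9), -0.50 to 0.22 (stem, Sox9) and -0.48 to 0.23 (goblet, Spdef). For the interaction they ranged from -0.63 to 0.73 (Neurog3), -0.45 to 0.77 (Neurod1), -0.20 to 2.65 (Pou2f3) and -0.84 to 0.28 (Rfx6), and for Spdef in Lgr5+ enteroendocrine against undifferentiated cells from -1.43 to 0.69. The replicate block rests on shared numbers only: same-numbered libraries correlated by 0.01 in the Lgr5+ sort and 0.31 in the lineage-traced sort in their deviations from the group means, with 2 pairs each. With the block Neurog3 in Lgr5+ Dll1/Dll4/Mfng-positive barcodes (1.00, adjusted p = 6.6e-05) and Sox4 in all lineage-traced cells (0.80, 6.9e-05) were called, and Setdb1 in the Lgr5+ sort was not (-0.86, 0.11).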
